A study of Saccharomyces cerevisiae BY4741 with 12 samples.

Results

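The yeast strain that lacks SET2 (set2Δ) was compared with a strain whose only Set2 carries phenylalanine in place of a tyrosine of its SET domain (set2-Y236F). The measurement was strand-specific RNA-seq, over 6632 annotated rows and the list of antisense transcripts that the authors assembled. Both strains are Saccharomyces cerevisiae of the BY4741 background, both lack the chromosomal SET2 gene, and both carry the plasmid pRS415 with a Leu-selective marker. In set2Δ the plasmid was empty, and in set2-Y236F it held the set2-Y236F gene. The WT and a further mutant, set2-Y149F, also on pRS415 in set2Δ cells, were measured alongside and are given here only as side values. Cells were grown at 30 °C from an OD600 of 0.2 to 0.8, in YPD or SD medium by the general methods, the RNA-seq cells of the WT and the mutants alike being described as grown in rich medium, and polyadenylated RNA was sequenced. The labels give 3 samples per strain, so the comparison concerns 6 of 12 samples. The deposited values were 1 mean FPKM per strain (fragments per kilobase of feature, scaled by a size factor for each library). Each could be split into the whole reads of 2 libraries, not 3, which gave 4 of 8 recovered libraries for these strains. Which 2 of the 3 labelled samples they are is unknown, and they are called library a and library b, with no pairing between strains. The study speaks of independent experiments for its antisense comparison, while the labels do not say whether the samples of a strain were separate cultures. The p-values measure the spread between the recovered libraries, part of which may be technical.

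Set2 is the sole H3K36 methyltransferase of yeast. It rides on elongating RNA polymerase II and methylates H3K36 in the bodies of transcribed genes, where the mark directs the Rpd3S deacetylase to keep the chromatin closed behind the polymerase. Without it, transcription can start inside genes, on the sense and on the antisense strand. By the study's own immunoblots set2-Y236F loses H3K36me3 and keeps H3K36me1 and H3K36me2, so that the comparison asks what an enzyme limited to the lower states changes relative to no enzyme.

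The altered residue lies in the SET domain, the catalytic part of the 733-residue protein. SET2 (YJL168C) spans 102227 to 104428 of chromosome X (sacCer3, read from the minus strand), and the altered codon (TAT, Tyr, in capitals) occupies 103721 to 103723. It is shown because it is the only designed difference inside the SET2 gene of the plasmid-borne strain.
SET2 around the altered codon, chrX:103706-103738, minus strand: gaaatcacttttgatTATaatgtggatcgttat

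The antisense transcripts were assembled by the authors. Those whose values frame the comparison are shown as the 60 bases before and the 40 bases from their assembled 5′ end, read 5′ to 3′ on the transcript strand of the sacCer3 sequence as RefSeq gives it. MTR4 and FIG2 had much antisense RNA in set2Δ and little in set2-Y236F. PPN1 and PSP2 lay between, FLO10 and THI72 were as abundant or nearly so in both strains, and SWR1 and YGR042W had higher values in set2-Y236F. Capitals mark TATAAA and TATATA, the hexamers searched for on the transcript strand (overlapping matches are merged).
MTR4 antisense, chrX:344959-345058, minus strand: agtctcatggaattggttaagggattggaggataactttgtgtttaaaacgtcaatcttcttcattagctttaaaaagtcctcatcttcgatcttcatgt
FIG2 antisense, chrIII:269611-269710, minus strand: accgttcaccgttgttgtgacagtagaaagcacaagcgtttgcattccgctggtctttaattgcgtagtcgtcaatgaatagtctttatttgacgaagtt
PPN1 antisense, chrIV:1364656-1364755, minus strand: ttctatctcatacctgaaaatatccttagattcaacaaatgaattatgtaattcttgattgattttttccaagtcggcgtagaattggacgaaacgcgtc
PSP2 antisense, chrXIII:239110-239209, minus strand: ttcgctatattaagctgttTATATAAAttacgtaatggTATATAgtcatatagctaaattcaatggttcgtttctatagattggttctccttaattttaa
FLO10 antisense, chrXI:649049-649148, minus strand: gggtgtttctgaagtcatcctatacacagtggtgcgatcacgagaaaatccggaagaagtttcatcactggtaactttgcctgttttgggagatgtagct
THI72 antisense, chrXV:698986-699085, plus strand: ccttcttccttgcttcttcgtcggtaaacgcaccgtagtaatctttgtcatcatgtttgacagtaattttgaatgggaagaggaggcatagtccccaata
SWR1 antisense, chrIV:1140469-1140568, minus strand: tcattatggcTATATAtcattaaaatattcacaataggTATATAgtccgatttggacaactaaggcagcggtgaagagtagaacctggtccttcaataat
YGR042W antisense, chrVII:580387-580486, minus strand: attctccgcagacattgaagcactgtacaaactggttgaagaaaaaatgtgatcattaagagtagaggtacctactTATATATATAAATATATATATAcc
Counting the first base of the assembled transcript as 0, PSP2 holds matches that start at -41, -39 and -22 and SWR1 at -50 and -22. Those of YGR042W lie at 16 to 32 inside the transcript. The windows of MTR4, FIG2, PPN1, FLO10 and THI72 hold none of these letters.

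The values per library marked set2Δ by its near absence of SET2 RNA. They do not show the altered residue, and set2-Y149F also had high SET2 RNA, at 8.71 times the WT mean. Whether the label of set2-Y236F is right as against set2-Y149F was therefore not tested. SET2 RNA was at 0.0704 and 0.310 FPKM in set2Δ, from 3 and 13 reads, and at 256 and 286 FPKM in set2-Y236F. The WT had 29.5 and 28.7 FPKM, so that the plasmid gene gave 9.32 times the WT mean. The residue change and the amount of SET2 RNA therefore cannot be told apart in set2-Y236F. LEU2, the gene of leucine synthesis that marks the plasmid, was at 6231 and 5815 FPKM in set2Δ and at 1855 and 1925 in set2-Y236F. It was 3.19-fold higher in set2Δ (log2 difference 1.67 ± 0.10 (SE), adjusted p = 0.00242), and the WT had 3325 and 3093. HIS3 was at 107 and 105 against 118 and 108 FPKM. The MATa genes MFA1 and MFA2, which encode a-factor, were at 695 to 2333 FPKM in the 4 libraries, while MF(ALPHA)1, the main α-factor gene, stayed at 0.514 to 0.861. The other α-specific genes examined were higher than MF(ALPHA)1. SAG1 was at 21.4 and 19.9 FPKM in set2Δ and at 19.2 and 15.1 in set2-Y236F. MF(ALPHA)2 and STE3 reached 5.36 and 4.82, both in library a of set2-Y236F. The 4 libraries held 17157868 to 19103080 reads on the listed features. Between the set2-Y236F libraries, library a was 2-fold or more above library b at 42 annotated rows and below it at 43, against 18 and 29 for set2Δ. Among those above in library b of set2-Y236F were drug-resistance genes, picked here from their values. PDR5, an exporter of drugs, was at 78.3 FPKM in library a of set2-Y236F and 492 in library b, against 65.3 and 57.5 in set2Δ. YGR035C (19.2 and 210), SNQ2 (36.4 and 214), PDR16 (68.9 and 234) and RSB1 (4.23 and 45.7) were likewise high in library b alone. The factors Pdr1 and Pdr3 themselves were at 27.4 and 25.1 and at 13.3 and 21.5. Counts of differing genes are therefore also given without that library.

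A larger share of the listed antisense transcripts than of the annotated rows differed between the strains. The list was chosen for high set2Δ values, so the 2 shares are not alike in selection. Its transcripts took 0.439% and 0.458% of the recovered reads in the set2Δ libraries and 0.229% and 0.207% in those of set2-Y236F. The WT had 0.0665% and 0.0638%, and set2-Y149F 0.208% and 0.226%. The median over the listed transcripts was 3.86 and 4.09 FPKM in set2Δ, 1.60 and 1.60 in set2-Y236F and 0.486 and 0.479 in the WT. The set2-Y149F libraries were at 1.55 and 1.62. The list was compiled by the authors as transcripts higher in set2Δ than in the WT in this same experiment. Its set2Δ values are thus selected high, and its direction is not independent evidence. Differences are set2Δ minus set2-Y236F in log2(FPKM + 1), a scale that shrinks the change of low features, and a row was called at an adjusted p under 0.05 in limma and a difference of at least 2-fold on that scale.

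Of the listed transcripts, 333 were called higher in set2Δ (42.9%), 1 was called lower (0.129%) and 443 were not called. At any size, 542 passed the adjusted p upward (69.8%) and 5 downward (0.644%). Both set2Δ libraries lay above both set2-Y236F libraries at 676 transcripts (87.0%) and below at 23 (2.96%), and the libraries overlapped at 78. The median difference was 0.91 on the log2 scale (quartiles 0.49 and 1.31), and the median ratio of FPKM was 2.44. Over the annotated rows the median was -0.02 (quartiles -0.24 and 0.23). The ratio of FPKM among the transcripts called higher ran from 2.13 to 48.2. The median transcript had 64 and 68 reads in set2Δ and 27 and 22 in set2-Y236F. Of the 333, 230 kept their call in every one of the 4 fits that left out 1 library. No transcript was without reads in both set2-Y236F libraries.

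**Figure D1:**
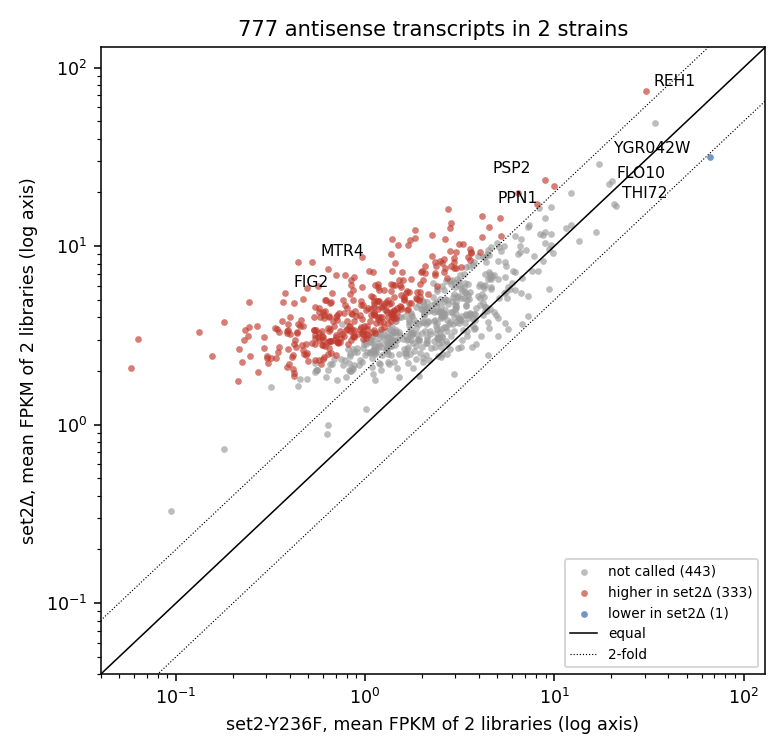
Mean FPKM of the listed antisense transcripts in set2Δ (vertical log axis) against set2-Y236F (horizontal log axis), each point 1 transcript and each mean over 2 libraries. Red points (333) were called higher in set2Δ, the blue point (1) lower and grey points (443) not called. Most points lie above the line of equality, and YGR042W lies below it.

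The largest difference was at MTR4, the RNA helicase of the TRAMP complex, which feeds noncoding RNA to the nuclear exosome. Its antisense transcript, read from the minus strand of chromosome X between 342412 and 344998, had 8.31 and 7.93 FPKM in set2Δ and 0.554 and 0.497 in set2-Y236F. The WT had 0.144 and 0.0878. The strains did not overlap, and set2Δ was 15.5-fold higher (log2 difference 2.58 ± 0.10 (SE), adjusted p = 0.00242). NVJ2, a lipid-binding protein of the contact between nucleus and vacuole, followed the same form. Its antisense RNA was at 8.26 and 6.60 FPKM in set2Δ and at 0.522 and 0.750 in set2-Y236F, an 11.7-fold difference. KIN2, a protein kinase of exocytosis, showed the same log2 difference as MTR4 but from few reads. It was at 5.03 and 11.2 against 0.553 and 0.331 FPKM, with 4 and 2 reads in set2-Y236F, and its adjusted p went from 0.00969 to 0.0529 without library b of set2-Y236F.

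FIG2, a cell wall adhesin induced during mating, had 4.97 and 5.93 FPKM of antisense RNA in set2Δ (chromosome III, 268287 to 269650). In set2-Y236F it had 0.263 and 0.494, and in the WT 0.0341 and 0.125. The ratio was 14.4 (log2 difference 2.23, adjusted p = 0.00242). The other members of the 10 largest differences were ALY2, YDR444W, BRR2, YNR065C, BSC5 and BPT1. BRR2, the spliceosomal helicase, was at 12.4 and 12.3 against 2.06 and 1.59 FPKM. BPT1, a vacuolar transporter, was at 17.4 and 15.1 against 2.71 and 2.76. All 6 had log2 differences of 2.2 to 2.32 and an adjusted p of at most 0.00287, and each kept its call without any 1 library.

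At the other end, YGR042W was the only transcript called lower in set2Δ. Its antisense transcript, 249 bases on chromosome VII from 580178 to 580426, was at 34.5 and 28.5 FPKM in set2Δ and at 50.6 and 83.2 in set2-Y236F (log2 difference -1.03 ± 0.26, adjusted p = 0.0458). The 2 libraries of set2-Y236F differed widely, and the call was lost in 3 of the 4 fits without 1 library (adjusted p = 0.119, 0.165 and 0.0849). It starts 9 bases past the end of NQM1, a transaldolase gene on the same strand. Gene ends, here and below, are those of RefSeq, which for coding genes are the ends of the coding sequence and not of the RNA. NQM1 itself was at 129 and 160 FPKM in set2Δ and at 235 and 267 in set2-Y236F (log2 difference -0.80, adjusted p = 0.0234). The reads of a gene and of a transcript that adjoins its end cannot be told apart in these values.

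AGP3, a low-affinity amino acid permease, was at 3.05 and 4.32 against 6.77 and 6.73 FPKM (log2 difference -0.74, adjusted p = 0.0308). VNX1 (-0.66, adjusted p = 0.0498), PKP2 (-0.63, 0.0481) and BUD16 (-0.44, 0.0465) also passed the adjusted p below 2-fold. Each of these 3 missed the adjusted p in all 4 fits that left out 1 library, and AGP3 passed only without library b of set2Δ (adjusted p = 0.0394). SWR1, the ATPase that deposits the histone variant H2A.Z, was at 3.98 and 2.93 against 6.32 and 5.13 FPKM and did not pass (-0.60, adjusted p = 0.0567). THI72, a transporter related to the thiamine carrier, was at 16.1 and 18.5 against 19.6 and 21.8 (-0.25, adjusted p = 0.190).

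PPN1, a vacuolar polyphosphatase, carried a 2501-base antisense transcript on chromosome IV from 1362195 to 1364695. It was at 21 and 22.7 FPKM in set2Δ, at 9.92 and 10.0 in set2-Y236F and at 4.94 and 5.08 in the WT, with a ratio of 2.19 (log2 difference 1.06, adjusted p = 0.00485). PSP2, which promotes translation of autophagy messages, was at 21.1 and 25.7 against 9.50 and 8.42, with the WT at 2.75 and 2.90 (log2 difference 1.29, adjusted p = 0.00576). In both genes set2-Y236F stood between the WT and set2Δ with no overlap. Some of the most abundant transcripts did not follow them. FLO10, a flocculin of the cell wall, was at 21.2 and 23.4 FPKM against 18.5 and 20.3, with the WT at 1.14 and 1.02 (log2 difference 0.19, 95% interval -0.10 to 0.48, adjusted p = 0.259). The more abundant transcript over SIZ1, a SUMO ligase, was at 23.8 and 22.6 against 19.0 and 21.3 (0.20, adjusted p = 0.236). The most abundant transcript lay over REH1, a factor of late ribosome assembly. It was at 77.7 and 69.5 against 34.4 and 26.4, with 28.3 and 23.9 in the WT (1.26, adjusted p = 0.00846). It starts 2 bases past the end of VAC14, which was at 30.2 and 29.7 against 18.1 and 19.3 FPKM on the same strand. TAF6, RIM8 and HEH2, also among the 10 most abundant, start 5, 3 and 1 bases past SLD3, RNA15 and TOM1. Over the whole list, 22 transcripts started within 50 bases of the end of a gene on their own strand.

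**Figure D2:**
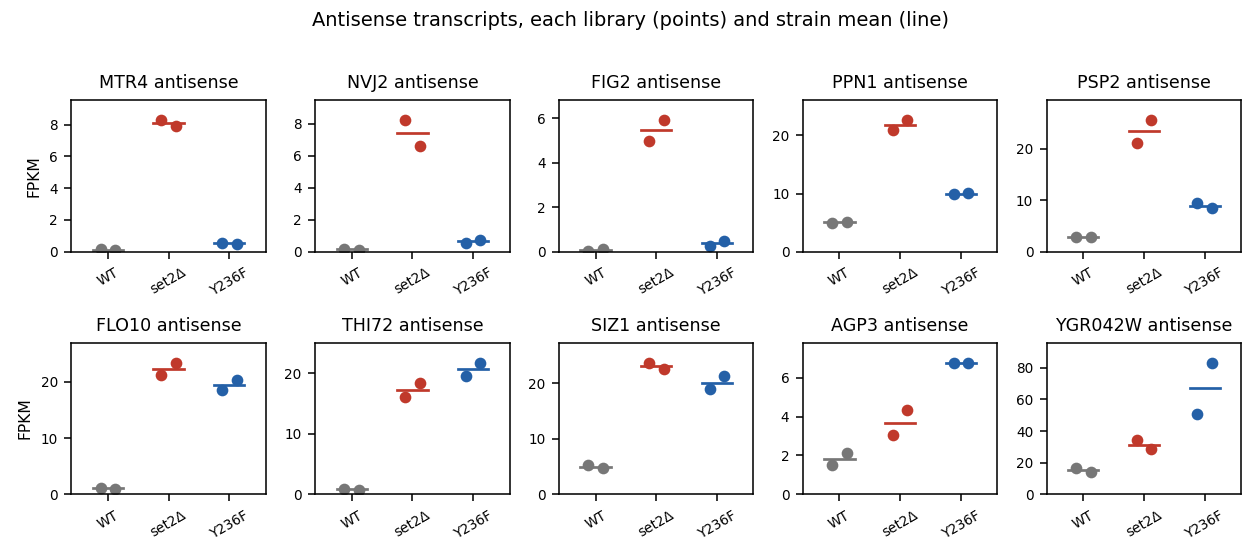
FPKM of 10 antisense transcripts (vertical axes from 0, scaled per panel) in each of 2 libraries (points) of the WT, set2Δ and set2-Y236F, with the strain mean as a line. MTR4, NVJ2 and FIG2 fall near the WT in set2-Y236F, PPN1 and PSP2 lie between, FLO10 and SIZ1 stay near set2Δ, and THI72, AGP3 and YGR042W lie above it.

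How far each transcript stayed up in set2-Y236F was expressed as the share of its rise over the WT in set2Δ that set2-Y236F kept, on the linear FPKM scale. The median was 30.0% (quartiles 15.1% and 54.3%), and it ran from 29.0% to 32.1% over the 4 pairs of libraries. On summed FPKM, which gives weight to the abundant transcripts, it was 40.3%. The median for set2-Y149F against the same WT and set2Δ means was 29.8%. Under 10% was kept at 124 transcripts, 10% to under 50% at 435, 50% to 80% at 125 and over 80% at 93. At 47 the mean of set2-Y236F exceeded that of set2Δ, and at 26 it was at or below the WT mean. MTR4 kept 5.12%, FIG2 5.57%, PPN1 29.5%, PSP2 29.8%, SIZ1 83.2%, FLO10 86.4%, THI72 121% and YGR042W 320%. These bounds were chosen after the values were seen. Each transcript's share has its own WT mean in both numerator and denominator, and divides by a rise to a set2Δ mean that was selected high. The share therefore describes and does not test. The 195 transcripts with the highest set2Δ level had a median of 32.1% and the 195 with the lowest 29.3%.

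The share kept varied with where the transcript began and with the length of the gene over it. For 774 transcripts with a sense gene in RefSeq, it had a Spearman rho of 0.27 with the position of the 5′ end along the sense gene, from its start, and of -0.27 with the coding length. Transcripts share libraries and many share genes, and no p is given. The median was 23.0% for 5′ ends in the first 25% of the gene (n = 73), 21.9% from there to 50% (160), 26.4% to 75% (193), 36.3% to the stop codon (266) and 43.0% past the stop codon (82). By coding length it was 40.1% up to 1500 bp, 30.8% above 1500 and up to 2000, 26.9% above 2000 and up to 3000 and 20.1% above 3000. The set2-Y149F medians, against the same WT and set2Δ means, were 30.6%, 21.6%, 26.4%, 36% and 39.2% in the same order of position and 39.0%, 30%, 27% and 24.1% by length. The 2 features combined: in genes over 2000 bp, 5′ ends before 75% of the gene had a median of 16.6% (n = 250) and later ones 36% (163). In genes up to 2000 bp the values were 34.2% (176) and 39.2% (185). The rho with the width of the transcript was -0.04 and with the sense level in the WT -0.03.

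**Figure D3:**
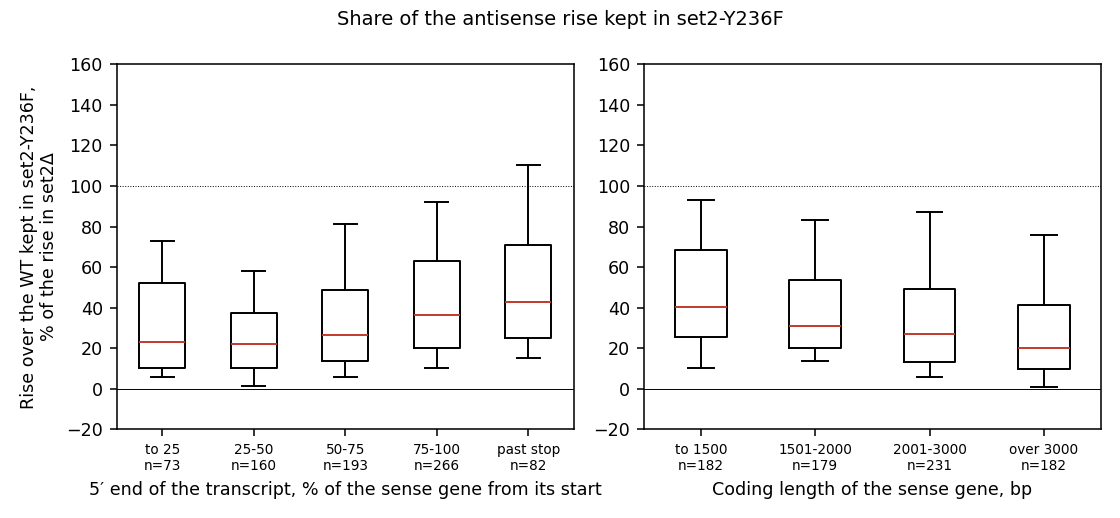
Share of the antisense rise of set2Δ over the WT that set2-Y236F kept (vertical axis, %), by position of the 5′ end in the sense gene (left) and by coding length (right). Boxes give the quartiles, red lines the median and whiskers the 10th and 90th percentiles. The medians go from 23.0% to 43.0% along the gene and from 40.1% to 20.1% with length.

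Transcripts over 1 gene could differ. Of the 84 genes with 2 or 3 listed transcripts, the median gap between their shares was 14.2 percentage points, and 15 had a gap over 50. RSN1, a membrane protein, had an internal transcript at 2.54 and 2.84 against 0.335 and 0.251 FPKM (log2 difference 1.51, adjusted p = 0.00242). A transcript of the same gene that starts past its stop codon was at 3.09 and 4.31 against 5.44 and 5.49 (-0.47, adjusted p = 0.0811). The shares kept were 7.48% and 168%. VNX1, a vacuolar ion exchanger, showed 45.1% for the internal transcript and 213% for the one at its stop codon.

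A TATA hexamer (TATAAA or TATATA, transcript strand, 150 bases before to 50 after the 5′ end) was in the window of 161 listed transcripts (20.7%). It was in 29 of 93 that kept over 80% (31.2%), in 20.4% of those that kept 10% to 80% and in 18 of 124 that kept under 10% (14.5%). Of all 6430 RefSeq gene starts, 36.6% held one in windows of the same length. For coding genes these starts are start codons and not the 5′ ends of the RNA. The antisense windows were placed at assembled 5′ ends, so the shares are not alike in placement. The GC content of the 3 groups had medians of 37.5%, 38.0% and 37.5%. Another gene on the same strand was overlapped or ended within 500 bases upstream of 162 transcripts. Their median share kept was 36.3%, against 28.5% for the 614 with no such gene.

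The antisense transcripts over 5 of the functional groups of genes examined are given beside the whole list. Of that list 42.9% were called higher, with a median share kept of 30.0%. The 5 include some of the lowest and highest shares kept. Of the groups not detailed, iron uptake kept 29.8% (0 of 8 called), cyclins 30.1% (3 of 7) and poor nitrogen source genes 13.9% (5 of 9). Over ribosome biogenesis genes, which build the ribosomal subunits, 7 of 8 transcripts were called higher in set2Δ and the median share kept was 9.74%. ENP1 was at 4.88 and 5.12 against 0.951 and 0.569 FPKM, RIX1 at 3.74 and 3.45 against 0.529 and 0.410, and BMS1, the exception, at 2.91 and 4.71 against 1.34 and 1.53. MPP10 was called from 4.36 and 2.46 against 0.720 and 0.862 and lost its call without library a of set2Δ (0.95) or without either library of set2-Y236F (adjusted p = 0.0668 and 0.0751). Over DNA replication and repair genes, 11 of 20 transcripts were called higher and 22.1% was kept. POL1, the catalytic subunit of the primase-associated polymerase, was at 5.61 and 5.80 against 1.36 and 1.16. DNA2, the nuclease and helicase of Okazaki fragments, had 1 transcript at 3.88 and 3.71 against 0.457 and 0.274. MEC1, the checkpoint kinase, was at 5.11 and 6.90 against 3.81 and 4.14 and was not called. Of the transcripts over genes that degrade noncoding RNA, 3 of 5 were called higher (MTR4, AIR2 and SEN1). Over thiamine genes 1 of 4 was called (THI6) and 74.1% was kept, and over subtelomeric families 0 of 4, with 82.5% kept. The groups hold few transcripts, and nothing particular to a group is read from these counts.

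Annotated rows, which were not selected by their set2Δ values, were called far less often. Of 6631 tested, 62 were called higher in set2Δ (0.935%) and 103 lower (1.55%), of which 32 and 85 matched a RefSeq gene. At any size 598 (9.02%) and 550 (8.29%) passed. Both libraries of set2Δ lay above both of set2-Y236F at 32.3% of rows and below at 34.9%. The median annotated level was 33.3 and 34.0 FPKM in set2Δ and 33.8 and 33.6 in set2-Y236F. Of the 165 calls, 11 had fewer than 10 reads in each of the 4 libraries. Without library b of set2-Y236F the counts were 51 higher and 82 lower, and without library a 101 and 146. In every one of the 4 fits that left out 1 library, 26 of the 62 and 57 of the 103 kept their call.

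The gene lists, here and below, were written with earlier results of these data known, so these counts describe and do not test. Of 22 genes of growth on acetate and other nonfermentable carbon, 7 were called lower in set2Δ and 0 higher. The shares of all annotated rows were 1.55% and 0.935%. At any size 13 passed downward and 1 upward, against 8.29% and 9.02%, the other 8 did not pass, and the median log2 difference was -0.89. ADY2, the acetate transporter, was at 3.46 and 6.41 FPKM in set2Δ and at 26.5 and 43.9 in set2-Y236F, a 7.14-fold difference (log2 difference -2.61 ± 0.33, adjusted p = 0.00884). JEN1, the lactate and pyruvate carrier, was at 35.1 and 51.5 against 166 and 173 (-1.97, adjusted p = 0.00506). CIT2, the peroxisomal citrate synthase of the glyoxylate cycle, was at 87.9 and 98.1 against 251 and 342. ACS1, an acetyl-CoA synthetase, was at 8.09 and 9.29 against 25.2 and 25.7. The strains did not overlap at any of these. CIT3, SFC1 and PCK1, the rate-limiting enzyme of gluconeogenesis, completed the 7. ACO1, the aconitase of the citric acid cycle, went the other way below 2-fold, at 230 and 209 against 130 and 153. The WT was closer to set2Δ at these genes, with ADY2 at 1.75 and 2.40, JEN1 at 21.6 and 28.6, CIT2 at 49.9 and 50.7 and ACS1 at 8.25 and 8.27. The set2-Y149F libraries, which also carry SET2 on the plasmid, had 19.8 and 26.6, 131 and 175, 256 and 240, and 20.8 and 25.4. PCK1 lost its call without either library of set2Δ (adjusted p = 0.118 and 0.0783) and fell under 2-fold without library b of set2-Y236F (-0.80).

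Phosphate uptake genes gave 4 lower and 0 higher of 26, with 9 and 2 at any size and a median of -0.18. Of all annotated rows, 1.55% were called lower and 0.935% higher, and 8.29% and 9.02% passed at any size. PHO84, the high-affinity phosphate transporter, was at 0.850 and 0.833 FPKM in set2Δ and at 7.22 and 5.56 in set2-Y236F (log2 difference -2.0, adjusted p = 0.00242). The sodium-coupled transporter PHO89 was at 0.390 and 0.822 against 8.19 and 8.84 (-2.58, adjusted p = 0.00242). SPL2, an inhibitor of low-affinity uptake, was at 4.86 and 4.81 against 19.5 and 17.4, and GIT1, which imports glycerophosphoinositol, at 0.930 and 0.944 against 2.50 and 3.38. GIT1 lost its call without either library of set2Δ (adjusted p = 0.0591 and 0.0567) and fell under 2-fold without library b of set2-Y236F (-0.85). PHO3, an acid phosphatase of thiamine uptake, passed upward below 2-fold, at 117 and 119 against 68.7 and 71.7.

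Of 39 genes of meiosis and sporulation, which a haploid in growth keeps low, 5 were called lower and 2 higher. The shares of all annotated rows, for this list and the thiamine and stationary phase lists below, were 1.55% and 0.935%. DMC1, the meiotic recombinase, was at 3.16 and 2.39 against 8.82 and 12 FPKM (-1.59, adjusted p = 0.00685). REC8 was at 1.09 and 1.85 against 4.96 and 5.22, and DIT1, MEI4 and SPO20 were lower at similar levels. RED1, a protein of the chromosome axis, was higher, at 18.6 and 23.4 against 8.51 and 5.87 (1.44, adjusted p = 0.0112). IME4, an RNA methyltransferase of meiotic entry, was higher at 2.38 and 3.29 against 1.14 and 0.578. Thiamine synthesis gave 3 lower of 21 (THI11, THI13 and THI5), near-identical copies whose reads cannot be assigned with confidence. Calls were lost at IME4 without library a or b of set2Δ (adjusted p = 0.0547 and 0.0968) or library b of set2-Y236F (0.0757), and at SPO20 and THI13 without the same libraries (SPO20 0.0567, 0.0770 and a difference of -0.83, THI13 0.0633, 0.0734 and -0.94). RED1 lost its call without library b of set2Δ (0.0539), and THI5 fell under 2-fold without library b of set2-Y236F (-0.97). SPG4, a gene of stationary phase, was at 35.2 and 48.7 against 247 and 347 FPKM (-2.79, adjusted p = 0.00348), and it was the only one called of the 15 in its list.

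Among the other large differences, PUL3, a subtelomeric transporter of the iron chelate pulcherrimin, was at 22.0 and 22.6 FPKM in set2Δ and at 6.34 and 7.53 in set2-Y236F, with the WT at 0.425 and 0.231 (1.56, adjusted p = 0.00282). DSE2 and PRY3, of daughter cell separation and the cell wall, were higher, DSE2 at 357 and 298 against 148 and 115 and PRY3 at 73.6 and 65.8 against 30.1 and 21.5. NRD1, which terminates noncoding RNA with Nab3 and Sen1, was at 75.3 and 75.4 against 35.8 and 25, with the WT at 61.1 and 61.0 (1.30, adjusted p = 0.0113). It was the only one called of 19 genes of noncoding RNA decay. Of these, 5 passed upward at any size and 0 downward, against 9.02% and 8.29% of all annotated rows. STE3, the a-factor receptor of MATα cells, was at 0.842 and 1.08 against 4.82 and 4.73. YER053C-A, of unknown function, was at 33.6 and 70.4 against 10.8 and 11.8. YPL088W was at 16.1 and 19.4 against 56.6 and 138 (-2.26, adjusted p = 0.0232), and its difference was -1.62 (adjusted p = 0.0218) without library b of set2-Y236F. The calls of NRD1 (adjusted p = 0.0570 and 0.0561) and YPL088W (0.0982 and 0.0751) were lost without either library of set2Δ, and that of YER053C-A without either of set2-Y236F (0.0641 and 0.0762). Outside RefSeq, the mitochondrial 15S rRNA was at 2.98 and 5.47 against 0.310 and 0.557 and the 21S rRNA at 3.88 and 5.63 against 1.58 and 1.64. Poly(A) selection is meant to remove such RNA, and the 21S rRNA call was lost without library b of set2Δ (0.90) or of set2-Y236F (adjusted p = 0.0592).

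Some lists passed mostly upward and below 2-fold. Over all annotated rows, 9.02% passed upward and 8.29% downward at any size, and 0.935% were called higher and 1.55% lower. Branched-chain amino acid synthesis, counted without LEU2, had 0 calls of 12 and 6 upward at any size, with a median of 0.49. ILV3, the dihydroxyacid dehydratase of that pathway, was at 438 and 417 against 243 and 245 FPKM. Flocculation and adhesion had 1 call of 13 (FIG2) and 6 upward at any size (median 0.44). Daughter cell separation had 2 of 17 called (DSE2 and PRY3), with 7 upward and 1 downward at any size (0.43). Ribosome biogenesis had 0 of 72 called and 11 upward at any size (median 0.19). Histone genes had 0 of 10 at either size. In the list of SET2 and its Rpd3S pathway, SET2 was the only call of 24, and the others that passed at any size were EAF3 downward, at 147 and 146 against 199 and 191, and 6 upward by at most 0.58.

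**Figure D4:**
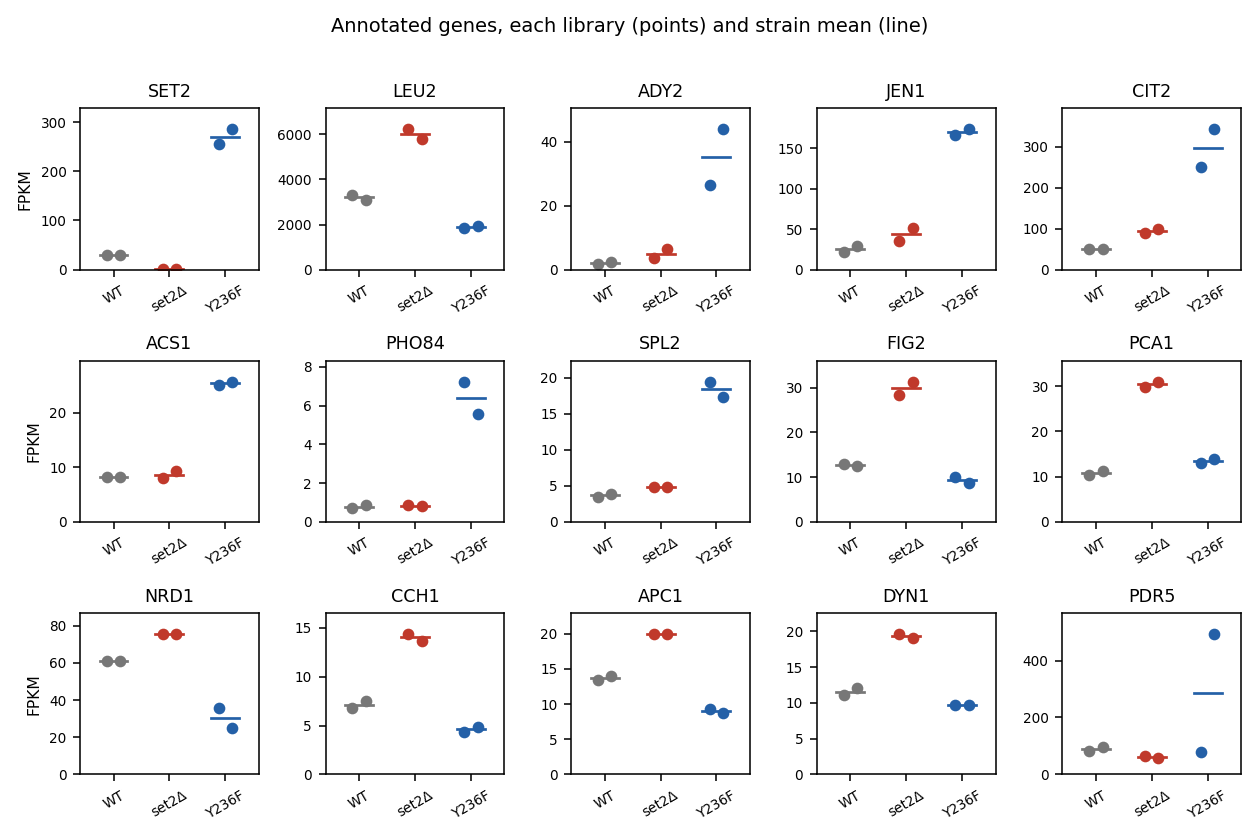
FPKM of 15 annotated genes (vertical axes from 0, scaled per panel) in each of 2 libraries (points) of the WT, set2Δ and set2-Y236F, with the strain mean as a line. SET2 is near 0 in set2Δ, ADY2, JEN1, CIT2, ACS1, PHO84 and SPL2 are high in set2-Y236F, FIG2, PCA1, NRD1, CCH1, APC1 and DYN1 are high in set2Δ, and PDR5 is high in library b of set2-Y236F alone.

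The sense genes under the listed antisense transcripts were examined in their own right. Of 687, 7 were called higher in set2Δ and 4 lower, and 104 and 36 passed at any size. Of all annotated rows, 0.935% were called higher and 1.55% lower, and 9.02% and 8.29% passed at any size. The median difference of the 687 sense genes was 0.11, against -0.04 over 5220 other RefSeq rows, of which 25 were called higher and 81 lower. These sets were not matched for coding length, which the sense difference followed over all genes. FIG2 sense RNA was at 28.3 and 31.3 against 10.2 and 8.65 FPKM (1.57, adjusted p = 0.00297), with the WT at 12.9 and 12.6. CCH1, a calcium channel, was at 14.3 and 13.7 against 4.34 and 4.89 (1.42, adjusted p = 0.00279). SWI1, a subunit of the SWI/SNF remodeller, was at 13.8 and 14.5 against 5.49 and 3.96. PCA1, a cadmium exporter, was at 29.8 and 31.0 against 13.0 and 13.8. YLR419W and APC1, a scaffold of the anaphase-promoting complex, were at 22.3 and 22.8 against 10.3 and 9.53 and at 19.9 and 19.9 against 9.29 and 8.77. The urea amidolyase DUR1,2 was at 129 and 89.9 against 47.1 and 43.3. Antisense RNA over FIG2, CCH1, SWI1, PCA1 and YLR419W was also called higher, so that both strands moved the same way there. The antisense calls at SWI1 were lost without either library of set2Δ (adjusted p = 0.0827 to 0.175) and, for 1 of its 2 transcripts, without library a of set2-Y236F (0.74), and that at YLR419W without library b of set2-Y236F (0.0512). At APC1 it passed below 2-fold (0.95, adjusted p = 0.00832), and at DUR1,2 it did not pass (0.52, adjusted p = 0.0568). The 4 lower genes were GYP7, at 59.99 and 81.4 against 157 and 188, SRY1, at 48.7 and 59.2 against 110 and 127, and MUP3 and RCH1. Without library a of set2Δ, SRY1 (-0.99), MUP3 (-0.73), RCH1 (-0.87) and DUR1,2 (0.98) were under 2-fold. Without library b of set2-Y236F, GYP7, DUR1,2, MUP3 and RCH1 missed the adjusted p (0.0569, 0.0694, 0.102 and 0.0573), as did MUP3 without library a (0.0878). The antisense difference did not pass at GYP7 (0.14, adjusted p = 0.666) or SRY1 (0.07, 0.637). Sense RNA of PPN1 was at 216 and 196 against 269 and 249 (-0.33, adjusted p = 0.0872). That of PSP2 was at 26.2 and 24.1 against 18.1 and 13.9 (0.63, 0.0417), and that of MTR4 at 23.5 and 22.9 against 15.2 and 15.7 (0.56, 0.0190). None of these reached 2-fold. Over the 4 fits that left out 1 library, the difference ran from 0.45 to 0.81 at PSP2 and from 0.53 to 0.58 at MTR4.

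The sense difference followed coding length over all genes, a pattern noticed in the data. Over 5903 RefSeq rows it had a Spearman rho of 0.38 with coding length. In the 4 pairs of libraries rho was 0.31 to 0.40, while between libraries of 1 strain it was -0.11 (set2Δ, a minus b) and 0.14 (set2-Y236F, a minus b). Genes share libraries and no p is given. The median difference was -0.11 up to 500 bp, -0.16 above 500 and up to 1000, 0.04 above 1500 and up to 2000, 0.29 above 3000 and up to 4000 and 0.42 above 6000 bp, where 95.1% of 41 genes lay above 0. Against the WT mean, genes above 6000 bp had medians of 0.16 and 0.15 in set2Δ and of -0.15 and -0.20 in set2-Y236F. Genes with and without a listed antisense transcript both followed length, with medians of 0.25 and 0.29 above 3000 and up to 4000 bp. The medians were 0.37 and 0.28 above 4000 and up to 6000 bp, and -0.25 and -0.16 above 500 and up to 1000 bp. The RefSeq rows called higher had a median coding length of 1822.5 bp and those called lower 984, against 1206 for all. ESP1, the separase that frees sister chromatids, was at 21.4 and 19.8 against 9.79 and 9.27 FPKM (1.04, adjusted p = 0.00506). The dynein heavy chain DYN1 was at 19.6 and 19.1 against 9.69 and 9.70 (0.93, adjusted p = 0.00557). TSC11, a subunit of TOR complex, was at 25.4 and 26.2 against 12.9 and 13.4, and the formin BNR1 at 12.2 and 11.7 against 5.70 and 4.97. These 4 genes were picked with their values in view. The other long genes in the same pick were APC1 (1.06), NTE1 (0.97), REA1 (0.49), FMP27 (0.45) and TOM1 (0.30). ESP1 fell just under 2-fold without library a of set2Δ (0.98) and BNR1 without library b of set2-Y236F (0.95).

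**Figure D5:**
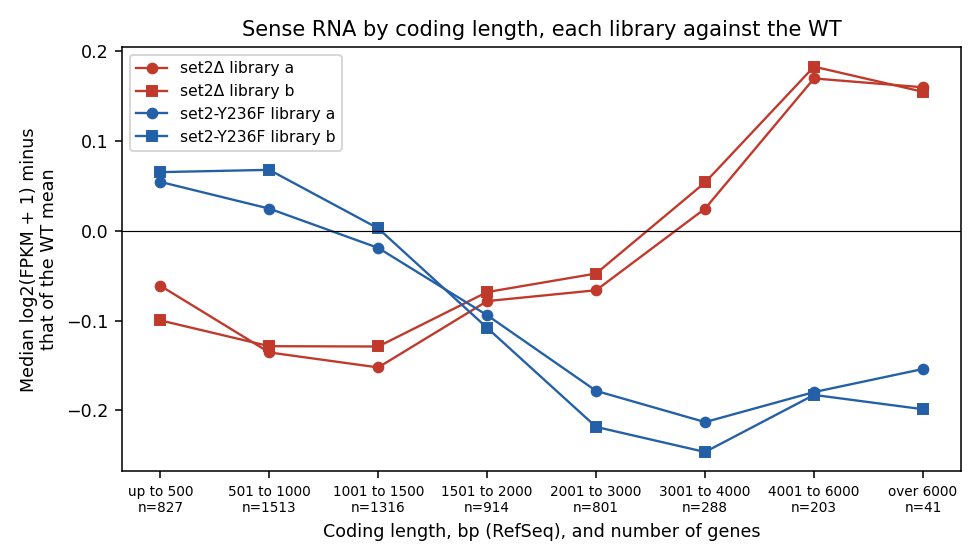
Median log2(FPKM + 1) of each library minus that of the WT mean (vertical axis) in 8 bins of coding length (horizontal axis, with the number of genes), for the 2 libraries of set2Δ (red) and of set2-Y236F (blue). The set2Δ lines cross above the set2-Y236F lines from the bin of 1500 to 2000 bp on and end at 0.16 and 0.15, against -0.15 and -0.20.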

How the data were processed

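Reads were mapped by the authors to sacCer3 with TopHat2 2.1.1 (the submitters’ processing notes also list HTSeq 0.13.5, Cuffdiff and Trimmomatic 0.38). Reads of a dUTP-stranded library of set2Δ were split by strand with bedtools 2.29.2, and those antisense to annotated genes were selected with SAMtools 1.10. They were merged with the reads of intergenic regions, taken with bedtools. Antisense transcripts were assembled from the merged reads with Cufflinks 2.2.1. The authors deposited 1 mean FPKM per strain for 6632 annotated rows and 777 antisense transcripts, 4 further annotated rows being not analysed here, and a mean scaled count signal over all libraries. Their columns of fold changes and p-values were not used.

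Each deposited FPKM mean equalled the sum of whole reads of 2 libraries divided by their size factors (largest relative residual 9.34e-15, tolerance 2e-14, smallest residual of any other split 2.24e-13), and all 7409 rows of every strain were split in this way. The size factors found were within 0.000132, as a relative difference, of those that the medians of ratios gave. The recovered totals were 17157868 to 23268689 reads. The antisense values were sorted as if by name, alphabetically (correlation with the mean scaled count signal 0.900, against -0.00194 as printed) but had been divided by the width of the name printed beside them. They were rescaled here to their own width, by factors of 0.135 to 8.45, over 2-fold for 207 transcripts.

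Values of log2(FPKM + 1) were fitted with limma 3.58.1 in R 4.3.3 on the 2 libraries of each of the 2 strains, with no filter on low values and no variance trend, and adjusted by Benjamini-Hochberg over 7408 rows (1 annotated row had no read in them). A call needed an adjusted p under 0.05 and a 2-fold difference. The plan had foreseen no test for strain means, and limma where values per library could be had. No count model was the main test, because the deposited unit is FPKM; limma voom on the recovered reads was run as an alternative. The fit was tested on simulated data. Tables and sequences were made with Python 3.11.15, pandas 2.3.3 and numpy 2.4.6, and genome sequence, strands and coding lengths came from the RefSeq annotation of R64, which is sacCer3 and matched 5904 annotated rows.

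Named were the 10 largest annotated differences in each direction among RefSeq rows that reach 5 FPKM, the 10 largest, 10 smallest and 10 most abundant antisense transcripts, up to 4 called members of each gene list, sense genes of listed transcripts that were called, SET2 with its neighbours, marker genes and the genes that the study singles out. Of these, the ones that a result turns on are printed. Members and lists were chosen with earlier results of these data known. The tolerance, the groups of shares kept, the bins of position and length, the distances of 50 and 500 bases, the drug-resistance genes and the long genes were chosen after the values were seen. Alternatives were other pseudocounts, scalings, filters, thresholds, subsets and fits, and leaving out each library.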

Additional observations from a re-analysis of the deposited data

How the results depend on the processing

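No paired analysis was possible because the recovered libraries carry no replicate number. With a pseudocount of 0.1, 0 antisense transcripts were lower and the median antisense difference was 1.26. With a pseudocount of 10, which flattens low values, 17 annotated rows were higher and 25 lower, 2 antisense transcripts higher and 0 lower, the median was 0.25, 4 sense genes of listed transcripts and 10 list members were called. At 1.5-fold the counts were 323 and 320 annotated, 507 and 4 antisense and 64 sense genes. Rows in RefSeq alone gave 32 higher. Scaling both strains to the same antisense median, which removes the shared part of the difference, gave 53 antisense transcripts higher and 60 lower. Transcripts that overlap 50% of their gene or lie within it (560) gave 0 lower. The share kept of the summed FPKM was 40.3%. Alternatives chosen after seeing the data were the voom fit (98 annotated rows higher) and the deposited antisense widths (0 antisense lower, median 0.83), as well as a fit of all 4 strains, a variance trend and a 2-fold difference with no test, which kept every count within 1.5 times. All of these kept more antisense transcripts higher than lower, apart from the scaling to the antisense median.

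Leaving out each library gave 51 to 101 annotated rows higher (101 without library a of set2-Y236F) and 81 to 146 lower, 280 to 327 antisense transcripts higher and 0 to 1 lower, 7 to 14 sense genes of listed transcripts (7 without library a of set2Δ or library b of set2-Y236F), 28 to 50 list members, a median antisense difference of 0.88 to 0.96 and a median share kept of 29.5% to 31.7%. With 1 library left in a strain, it is assumed to vary like the other strain's pair. Depth limits single antisense transcripts, since the median transcript had 22 to 68 reads in the 4 libraries, and 7 had no read in 1 set2-Y236F library.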

Other observations

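The size of SET2 and LEU2 RNA can be set side by side in all 4 strains. Mean LEU2 RNA was 6023 FPKM in set2Δ, 3209 in the WT, 1890 in set2-Y236F and 1775 in set2-Y149F. SET2 was 8.71 times the WT mean in set2-Y149F and 9.32 times in set2-Y236F.

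Levels outside the comparison were as follows. Antisense transcripts with a mean under 1 FPKM numbered 223 in set2-Y236F, 217 in set2-Y149F, 622 in the WT and 4 in set2Δ, and summed antisense FPKM was 3750 and 3995 in the set2Δ libraries, 1923 and 1945 in set2-Y236F, 1828 and 1935 in set2-Y149F and 633 and 617 in the WT.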
